A study of Mus musculus with 33 samples.

Results

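The genes described here encode the machinery that removes messenger RNA from the cell: the deadenylases that shorten the poly(A) tail, the decapping enzyme and its activators, the 5'-3' exonucleases, the nonsense-mediated decay factors and the RNA exosome. They were chosen by symbol from a list of 46 genes, and 45 of them were among the 26621 gene symbols of the deposited tables. Cnot11, the remaining one, was not matched to a symbol. All 45 passed the filter on low counts in each of the 3 assays. The study behind the data asked how the m6A reader YTHDF2 acts on the transcripts of early postnatal mouse hippocampal neural stem cells, and it measured RNA in 33 libraries. All cells were neural stem cells from the hippocampus at postnatal day 0.5, grown in culture with bFGF and EGF. Libraries labelled Nestin-cKO (cKO, a conditional knockout of Ythdf2) and libraries labelled Nestin-WT were made at 0, 2 and 4 h of actinomycin D, a transcription inhibitor, at 5 µM, with 3 libraries per genotype and time. The other libraries came from WT cells: an m6A antibody pull-down with its input (3 each), and a YTHDF2 antibody pull-down set against IgG and input libraries (3 of each kind). Nestin names the promoter commonly used to drive Cre in neural progenitors. The labels do not state whether replicates came from separate animals, so the p-values measure the spread between these libraries. For each gene that spread was estimated over all libraries of a series together. A test within WT therefore also rests on the spread of libraries labelled cKO, and the other way round.

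As background, an mRNA in a mammalian cell is usually degraded after its poly(A) tail has been shortened, first by PAN2-PAN3 and then by the CCR4-NOT complex. The body is then taken apart either from the 5' end, after DCP2 has removed the cap and XRN1 follows, or from the 3' end by the exosome. Nonsense-mediated decay is a branch for mRNAs with an early stop codon, in which UPF2 and the UPF3 proteins join the helicase UPF1 and the kinase SMG1 phosphorylates it. In human cells YTHDF2 was shown to bind CNOT1, the scaffold of CCR4-NOT, which brings m6A-carrying mRNA to the deadenylases.

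Ythdf2 (chromosome 4, 132184916 to 132212256 in GRCm38.p6) was the check of the genotype labels, and its counts went against them. It had 3117, 1035 and 736 normalized CPM (counts scaled to library size) in the libraries labelled cKO at 0 h, against 219, 253 and 258 CPM in those labelled WT. The log2 fold change was 2.74 (SE 0.37) at 0 h, 4.00 (SE 0.39) at 2 h and 4.31 (SE 0.40) at 4 h. For this reason the groups are called by their labels, and every direction below holds for libraries as labelled. The gene-level count does not show which exons the reads came from.

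Total counts were 10257329 to 21353383 per RNA-seq library, 12892222 to 28334300 in the m6A series and 8419106 to 23097887 in the YTHDF2 series. All 12 neural stem cell markers were detected, with a summed level of 9264 to 12366 CPM in libraries labelled cKO and 14418 to 16846 CPM in those labelled WT at 0 h. The 9 fibroblast markers summed to 19.2 to 62.6 CPM in cKO and 3.03 to 4.97 CPM in WT at 0 h, and 6 of the 8 tested were called higher in cKO. The 7 neuron markers found summed to 56.2 to 75.5 CPM in cKO and 194 to 245 CPM in WT, and the 10 oligodendrocyte lineage markers to 246 to 574 CPM in cKO and 519 to 647 CPM in WT. Microglia markers stayed at or below 3.90 CPM and endothelial markers at or below 2.86 CPM in sum at 0 h, with Tmem119, C1qa, Cdh5 and Cldn5 at 0 in each library. Replicates labelled cKO differed more among themselves than those labelled WT: the chi-square per degree of freedom between 2 libraries of a group was 30.4 to 159 in cKO and 6.62 to 24.7 in WT. The part of these differences in the genotype results was not tested. In the annotation, 21 members overlap another gene, among them Smg1 and Cnot4 (non-coding genes) and Dcp1a (Cacna1d), and the strand setting of the counting is not given in the sources used here. In bulk RNA, fewer cells of a type and less RNA per cell cannot be told apart.

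Levels between genes were compared in TPM, a unit that accounts for transcript length. At 0 h Lsm7, a subunit of the small LSM1-7 ring that binds the 3' ends of deadenylated mRNA, stood highest, with 856 ± 320 TPM in libraries labelled cKO and 712 ± 17.2 TPM in those labelled WT (SD, n = 3). Lsm3 of the same ring followed, and then Exosc8, a subunit of the exosome ring, at 382 ± 215 TPM in cKO and 519 ± 22.7 TPM in WT. Among deadenylases, the scaffold Cnot1 had 16.9 ± 5.10 TPM in cKO and 38.7 ± 4.78 TPM in WT, while the catalytic subunit Cnot8 had 103 ± 36.0 TPM in cKO and 106 ± 6.09 TPM in WT. The catalytic decapping enzyme Dcp2 stood low, at 1.91 ± 0.42 TPM in cKO and 2.29 ± 0.25 TPM in WT. Dcp1b, a paralog of the decapping co-activator Dcp1a, was lowest, at 0.110 ± 0.080 TPM in cKO and 0.199 ± 0.067 TPM in WT. Upf1 had 2.37 ± 0.90 TPM in cKO and 1.89 ± 0.41 TPM in WT, and its partner Upf2 had 8.69 ± 2.25 TPM in cKO and 27.1 ± 3.21 TPM in WT.

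**Figure D1:**
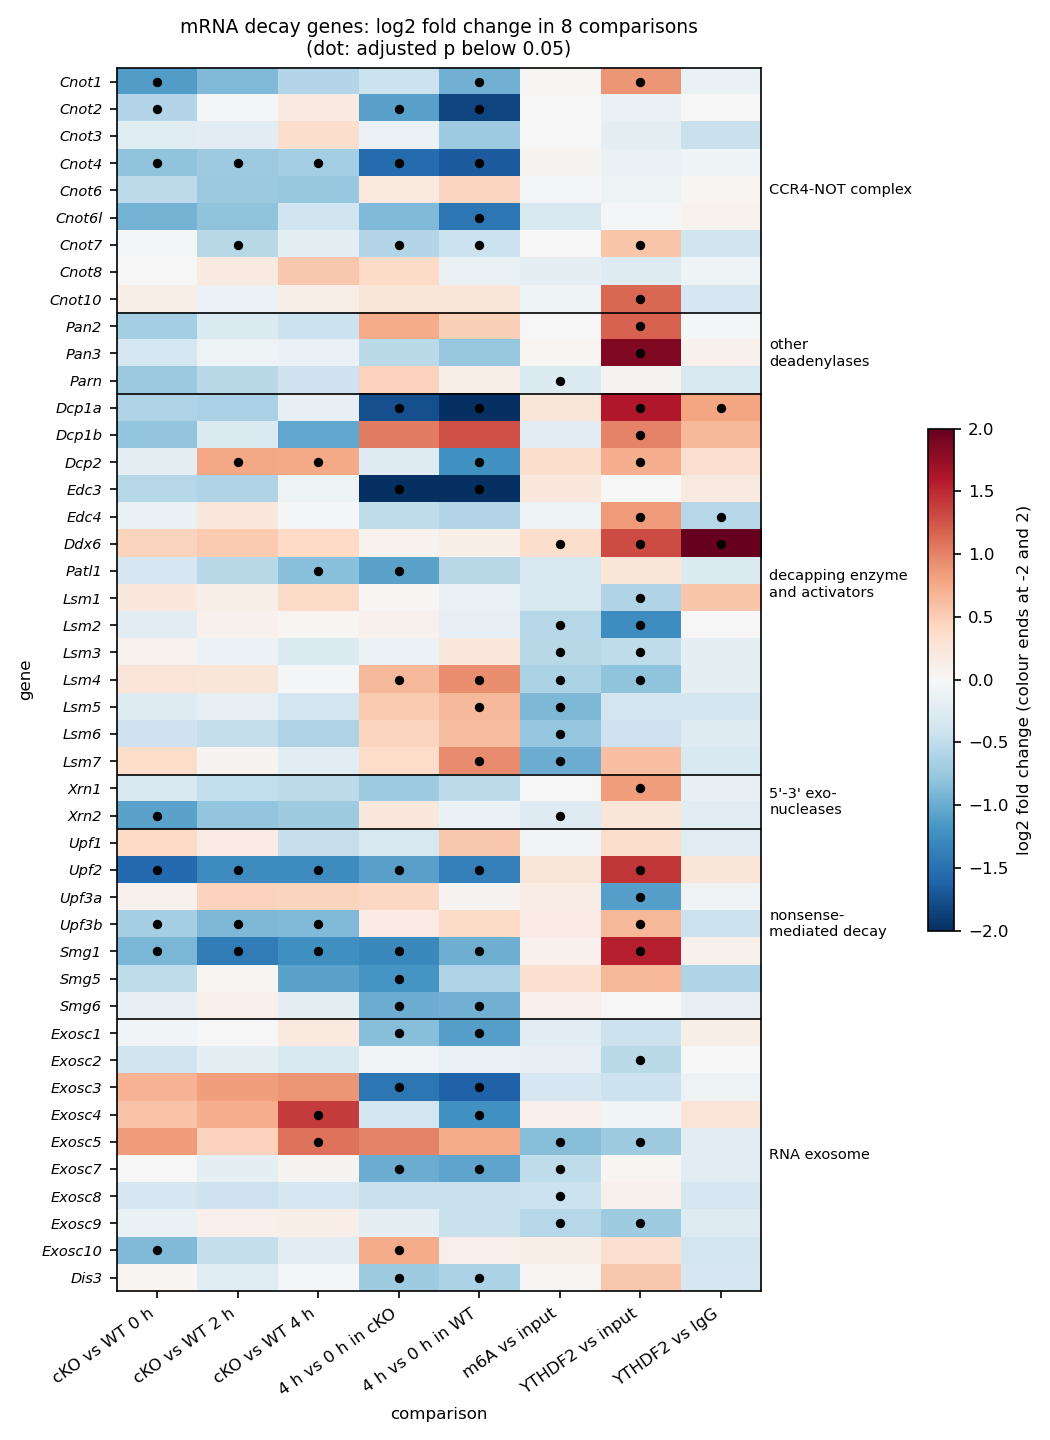
The 45 decay genes, in rows grouped by role, and 8 comparisons, in columns; colour gives the log2 fold change and a dot marks an adjusted p below 0.05. Upf2, Upf3b, Smg1 and Cnot4 carry a dot for lower levels in libraries labelled cKO at 0, 2 and 4 h.

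The first comparison set libraries labelled cKO against those labelled WT. Upf2, Upf3b and Smg1, which act together in nonsense-mediated decay, and Cnot4, a ubiquitin ligase associated with CCR4-NOT, were lower in cKO at 0, 2 and 4 h. These 4 of 45 members stand beside 4.16% of the 14029 genes tested that were lower at all 3 times. No member was higher at all 3 times, beside 3.53% of genes. At 0 h, 8 members or 17.8% were lower (9.89% of all genes) and 0 higher (7.71%) by edgeR's quasi-likelihood test with Benjamini-Hochberg adjustment at 0.05. Without adjustment 3 members reached p below 0.05 in the higher direction, and DESeq2 also called 0 higher. At 2 h, 5 were lower (8.54%) and 1 higher (8.52%), and at 4 h, 5 were lower (9.11%) and 3 higher (11.0%). The median log2 fold change of the members was -0.26 at 0 h, -0.19 at 2 h and -0.20 at 4 h, beside -0.01, 0.05 and 0.08 for all genes tested.

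Promoter windows of Upf2, Smg1, Upf3b and Cnot4 are shown because each was called lower in cKO at 0, 2 and 4 h. Whether these genes move together was not tested. Each window spans the 250 bases before and 50 bases after a transcription start. The windows come from the RefSeq promoter table on GRCm38.p6 and are read 5' to 3' on the gene's strand. These starts lie inside the annotated gene, 22 bases from its outer end for Upf2, 17 for Cnot4, 149 for Upf3b and 800 for Smg1, so the Smg1 window lies wholly within the annotated gene. They lie at chr2:5951219-5951518 (plus strand) for Upf2, chr7:118243588-118243887 (minus) for Smg1, chrX:37110273-37110572 (minus) for Upf3b and chr6:35133688-35133987 (minus) for Cnot4. Capitals mark matches on either strand to the CCAAT box CCAAT, the GC box GGGCGG, the TATA letters TATAAA, the ETS core CCGGAAG and the YY1 core ATGGCG, and 2 neighbouring matches can share letters.
Upf2: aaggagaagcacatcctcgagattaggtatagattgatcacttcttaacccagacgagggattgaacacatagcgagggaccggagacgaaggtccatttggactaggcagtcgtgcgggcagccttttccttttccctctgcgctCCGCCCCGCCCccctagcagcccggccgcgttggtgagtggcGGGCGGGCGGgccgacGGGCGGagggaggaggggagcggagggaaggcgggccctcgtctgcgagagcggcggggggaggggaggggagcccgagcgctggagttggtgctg
Smg1: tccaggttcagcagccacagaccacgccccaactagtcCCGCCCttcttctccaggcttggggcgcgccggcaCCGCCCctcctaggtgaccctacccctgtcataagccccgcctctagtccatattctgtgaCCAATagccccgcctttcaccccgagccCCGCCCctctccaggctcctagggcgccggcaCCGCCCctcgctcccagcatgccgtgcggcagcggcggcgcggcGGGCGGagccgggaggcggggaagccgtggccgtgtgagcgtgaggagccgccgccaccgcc
Upf3b: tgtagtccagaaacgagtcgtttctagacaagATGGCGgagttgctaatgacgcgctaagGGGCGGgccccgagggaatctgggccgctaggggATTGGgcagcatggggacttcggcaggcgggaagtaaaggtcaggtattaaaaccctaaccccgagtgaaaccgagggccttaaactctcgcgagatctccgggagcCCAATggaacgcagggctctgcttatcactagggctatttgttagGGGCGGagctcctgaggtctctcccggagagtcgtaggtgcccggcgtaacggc
Cnot4: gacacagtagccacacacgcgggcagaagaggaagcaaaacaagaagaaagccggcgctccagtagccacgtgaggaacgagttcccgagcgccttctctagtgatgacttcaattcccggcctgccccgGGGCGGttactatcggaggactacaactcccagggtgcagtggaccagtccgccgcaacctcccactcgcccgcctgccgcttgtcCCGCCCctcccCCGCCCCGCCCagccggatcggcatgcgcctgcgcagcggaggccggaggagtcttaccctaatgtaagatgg
These windows hold 5, 5, 2 and 4 GC boxes in the order shown, and their GC content is 66.0%, 72.0%, 58.7% and 64.3%. A CCAAT box occurs 1 time in the Smg1 window and 2 times in the Upf3b window, and the YY1 core 1 time in the Upf3b window. The table holds 46 promoters of 37 members, some genes having several. Of these 46 promoters, 34 (73.9%) had a GC box, 15 (32.6%) a CCAAT box, 14 (30.4%) the YY1 core, 11 (23.9%) the ETS core and 0 the TATAAA letters. Among all 32851 promoters, with no chromosome left out, the shares were 35.7%, 37.4%, 8.9%, 8.9% and 13.6% in the same order. These are letter matches, not binding sites.

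In the CCR4-NOT complex, Cnot4 had 52.9, 83.4 and 62.5 CPM in libraries labelled cKO at 0 h, against 122, 112 and 115 CPM in those labelled WT. The groups did not overlap, and Cnot4 was lower, with a log2 fold change of -0.81 (SE 0.20, adjusted p = 0.0131). It had 39.7, 25.3 and 25.5 CPM in cKO at 2 h, against 47.7, 47.1 and 54.6 CPM in WT, and 25.8, 20.6 and 21.9 CPM in cKO at 4 h, against 34.3, 37.7 and 37.6 CPM in WT. The groups again stood apart, with a log2 fold change of -0.72 (SE 0.20, adjusted p = 0.0224) at 2 h and -0.68 (SE 0.20, adjusted p = 0.0248) at 4 h. Cnot1 had 51.4, 95.6 and 73.9 CPM in cKO at 0 h, against 177, 141 and 162 CPM in WT, a log2 fold change of -1.12 (SE 0.36, adjusted p = 0.0416). It had 103, 66.6 and 36.2 CPM in cKO at 2 h, against 131, 126 and 123 CPM in WT, and 80.0, 56.7 and 27.6 CPM in cKO at 4 h, against 108, 65.0 and 73.3 CPM in WT. The Cnot1 libraries overlapped at 4 h, and the test did not pass at 2 h (-0.89, adjusted p = 0.094) or at 4 h (-0.59, adjusted p = 0.254). Cnot2, which pairs with CNOT3 in the NOT module, had 83.0, 111 and 91.5 CPM in cKO at 0 h, against 145, 137 and 144 CPM in WT (log2 -0.58, SE 0.18, adjusted p = 0.0382). Cnot7, a catalytic deadenylase subunit, had 37.5, 35.9 and 30.0 CPM in cKO at 2 h, against 49.7, 51.5 and 50.2 CPM in WT (log2 -0.55, SE 0.16, adjusted p = 0.0273). Its paralog Cnot8 did not pass at any time, with a log2 fold change of 0.01 at 0 h, 0.19 at 2 h and 0.54 at 4 h.

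In nonsense-mediated decay, Upf2, which bridges UPF1 and the UPF3 proteins, had 29.8, 25.8 and 15.5 CPM in libraries labelled cKO at 0 h, against 59.9, 77.3 and 70.9 CPM in those labelled WT. It was lower, with a log2 fold change of -1.55 (SE 0.24, adjusted p = 0.000789), which is 0.342 times the WT level. Upf2 had 13.8, 11.3 and 9.08 CPM in cKO at 2 h, against 28.9, 23.4 and 30.2 CPM in WT, and 13.2, 11.3 and 9.07 CPM in cKO at 4 h, against 24.7, 23.9 and 31.7 CPM in WT. At each time the highest library labelled cKO lay below the lowest labelled WT, with a log2 fold change of -1.27 (SE 0.24) at 2 h and -1.26 (SE 0.24) at 4 h. Smg1, the kinase that phosphorylates UPF1, had 39.5, 59.1 and 39.6 CPM in cKO at 0 h, against 90.9, 79.4 and 89.9 CPM in WT. It had 21.9, 15.9 and 15.6 CPM in cKO at 2 h, against 42.0, 46.7 and 52.7 CPM in WT, and 19.9, 23.6 and 13.0 CPM in cKO at 4 h, against 47.8, 36.6 and 47.6 CPM in WT. Smg1 also stood apart at each time, with a log2 fold change of -0.91 (SE 0.23, adjusted p = 0.0143) at 0 h, -1.40 (SE 0.23, adjusted p = 0.00121) at 2 h and -1.23 (SE 0.23, adjusted p = 0.00228) at 4 h. Upf3b, which links UPF2 to the exon junction complex, had 60.0, 36.1 and 36.3 CPM in cKO at 0 h, against 68.2, 66.6 and 76.0 CPM in WT. It had 54.5, 41.4 and 37.8 CPM in cKO at 2 h, against 76.7, 83.8 and 89.2 CPM in WT, and 62.3, 46.7 and 39.5 CPM in cKO at 4 h, against 89.1, 91.0 and 93.3 CPM in WT. Its groups did not overlap, with a log2 fold change of -0.67 (adjusted p = 0.0405) at 0 h, -0.90 (adjusted p = 0.0111) at 2 h and -0.88 (adjusted p = 0.0105) at 4 h. The paralog Upf3a did not pass, with a log2 fold change of 0.09 at 0 h, 0.46 at 2 h and 0.45 at 4 h, and its groups overlapped.

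**Figure D2:**
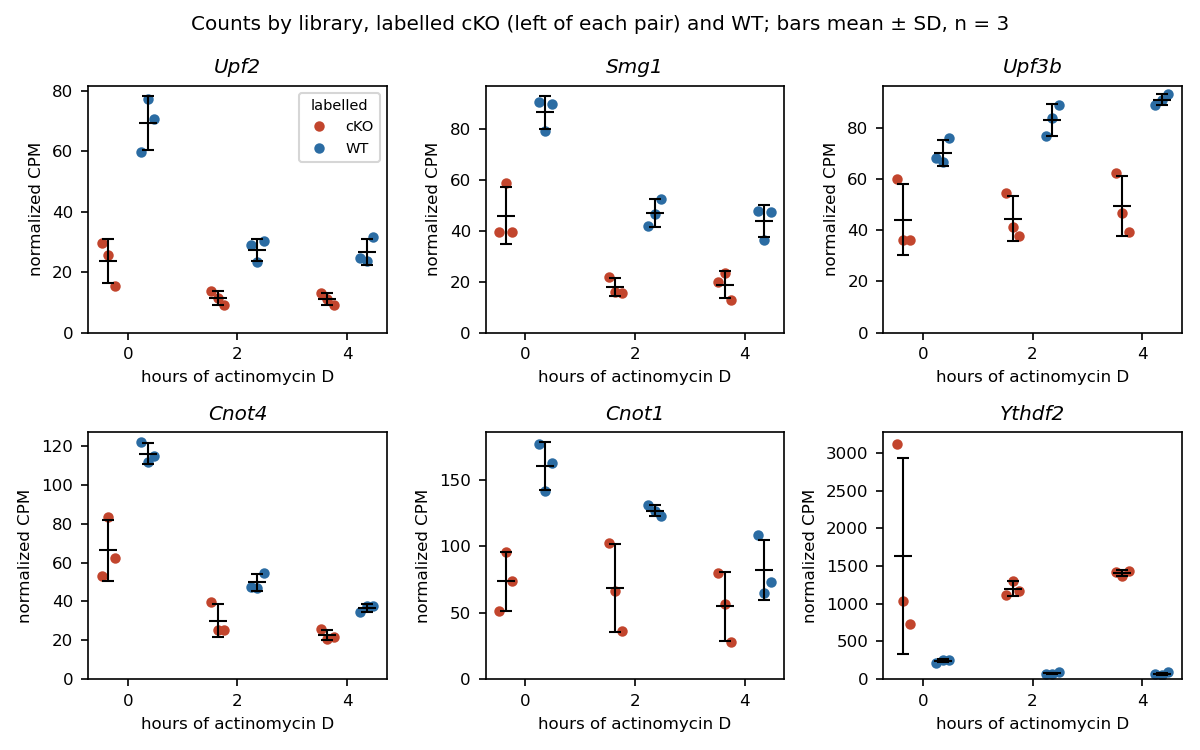
Normalized CPM of 5 decay genes and of Ythdf2 in each library, by hours of actinomycin D, with libraries labelled cKO left of those labelled WT; points are libraries and bars are the mean ± SD of 3. The highest library labelled cKO lies below the lowest labelled WT for Upf2, Smg1, Upf3b and Cnot4 at each time, while Ythdf2 is higher in cKO.

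Among the decapping factors, the enzyme Dcp2 was higher in libraries labelled cKO at 2 h, with 11.9, 10.4 and 8.32 CPM, against 7.41, 4.80 and 5.71 CPM in those labelled WT (log2 0.77, SE 0.25, adjusted p = 0.0407). At 4 h Dcp2 had 6.81, 7.23 and 7.63 CPM in cKO, against 3.39, 4.20 and 5.17 CPM in WT (log2 0.76, SE 0.25, adjusted p = 0.0417). The groups did not overlap at either time, but at 0 h they did, with 11.1, 7.13 and 7.65 CPM in cKO and 9.24, 8.85 and 11.3 CPM in WT. Patl1, which bridges decapping factors and the LSM ring, had 9.90, 11.7 and 7.99 CPM in cKO at 4 h, against 12.5, 19.6 and 20.8 CPM in WT (log2 -0.83, SE 0.25, adjusted p = 0.0263). The nuclear 5'-3' exonuclease Xrn2 had 140, 203 and 137 CPM in cKO at 0 h, against 341, 309 and 363 CPM in WT (log2 -1.07, SE 0.33, adjusted p = 0.0340). In the exosome, the nuclear exonuclease subunit Exosc10 had 19.0, 44.1 and 41.7 CPM in cKO at 0 h, against 78.8, 55.6 and 58.4 CPM in WT (log2 -0.88, SE 0.27, adjusted p = 0.0324). The ring subunit Exosc4 went the other way at 4 h, with 7.73, 5.31 and 14.1 CPM in cKO, against 3.77, 3.72 and 2.78 CPM in WT (log2 1.40, SE 0.32, adjusted p = 0.00752). Exosc5, another ring subunit, was also higher at 4 h, by a log2 of 1.09 (SE 0.37, adjusted p = 0.0459), with 10.8 ± 1.98 CPM in cKO and 5.02 ± 1.57 CPM in WT. Exosc4 overlaps Oplah in the annotation, so its reads could in part belong to that gene.

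The genotype calls differed in how far they rested on single libraries. Upf2 kept its call with any 1 library left out, with adjusted p-values of 0.000877 to 0.00529 at 0 h, 0.00226 to 0.021 at 2 h and 0.00175 to 0.018 at 4 h. Smg1 did so at 2 h (up to 0.0112) and at 4 h (up to 0.0132), but at 0 h it missed without cKO library 3 (0.0524), WT library 1 (0.0508) or WT library 3 (0.0525). Cnot4 kept its call at 0 h (up to 0.0484) and lost it at 2 h without cKO library 2 or 3 or any 1 WT library (up to 0.107), and at 4 h without cKO library 2 or 3 or WT library 2 or 3 (up to 0.0862). Upf3b lost it at 0 h without cKO library 2 or 3 or any 1 WT library (up to 0.138), and at 2 h and 4 h without cKO library 3 (0.0593 and 0.0576). At 0 h, Cnot1 (up to 0.112), Cnot2 (up to 0.105) and Xrn2 (up to 0.105) lost theirs without cKO library 1 or 3 or any 1 WT library, and Exosc10 (up to 0.127) without cKO library 1 or any 1 WT library. At 2 h, Cnot7 (up to 0.128) lost it without cKO library 2 or 3 or any 1 WT library, and Dcp2 (up to 0.150) without any 1 cKO library or WT library 2 or 3. At 4 h, Dcp2 (up to 0.175) lost it without any 1 of the 6 libraries, Exosc4 (0.0547) without cKO library 3, Patl1 (up to 0.118) without cKO library 3 or WT library 2 or 3, and Exosc5 (up to 0.179) without cKO library 2 or 3 or any 1 WT library. Leaving out the 3 libraries labelled cKO with replicate number 1 raised the members lower to 15 at 0 h, 15 at 2 h and 11 at 4 h, while over all genes tested those lower came to 2351 at 0 h, 2659 at 2 h and 2537 at 4 h, beside 1387, 1198 and 1278 with all libraries. Without the 3 labelled cKO with number 2, 4 members were lower at 0 h, 2 at 2 h and 2 at 4 h. Without the 3 libraries of any 1 WT number, 1 member was lower at 0 h, 2 or 3 at 2 h and 2 to 4 at 4 h, and over all genes the counts fell as well, to 224 to 367 at 0 h.

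Scaling and pairing moved some of these splits. At 4 h, 6 members were higher and 4 lower with library size alone, 1 higher and 10 lower with ribosomal protein genes as the reference, 2 higher and 6 lower with RLE factors and 1 higher and 4 lower on log2(TPM + 1). At 2 h the split was 2 higher and 4 lower with library size alone and 0 higher and 10 lower with ribosomal protein genes. Of all genes at 4 h, 2499 were higher and 954 lower with library size alone, and 737 and 1899 with ribosomal protein genes. RLE factors gave 1418 and 1392 there, and the TPM scale 1207 and 1114. Of all genes at 2 h, 1927 were higher and 924 lower with library size alone, and 587 and 1923 with ribosomal protein genes. The median of all genes was 0.22 at 2 h and 0.27 at 4 h with library size alone, and -0.19 at 0 h, -0.12 at 2 h and -0.09 at 4 h with ribosomal protein genes. Upf2, Smg1 and Upf3b passed as lower under each of these scalings at each time. Cnot4 did not pass at 4 h with library size alone (adjusted p = 0.0668) or on the TPM scale (0.0574). Cnot2 did not pass at 0 h with RLE factors (0.053). Cnot2 at 0 h (0.062), Exosc10 at 0 h (0.0546) and Cnot7 at 2 h (0.0755) did not pass with library size alone. Dcp2 did not pass at 2 h (0.122) or 4 h (0.125) with ribosomal protein genes, or at 4 h on the TPM scale (0.0886), nor did Exosc5 at 4 h with them (0.138), with RLE factors (0.052) or on the TPM scale (0.0529). Without the filter on low counts, Upf3b (0.0655) and Cnot2 (0.104) at 0 h, Cnot7 (0.0959) and Dcp2 (0.0913) at 2 h and Dcp2 (0.109) at 4 h did not pass. Length went with the genotype difference across the 45 members: Spearman's rho between relative transcript length and the log2 fold change at 0 h was -0.46, beside -0.27 over all genes tested. All genes share the same libraries, so this is a description.

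Of 57 other RNA decay genes listed beside the members, 47 were tested. At 0 h 4 (8.51%) were higher and 8 (17.0%) lower in libraries labelled cKO, beside 7.71% and 9.89% of all genes. At 2 h 3 (6.38%) were higher and 4 (8.51%) lower, beside 8.52% and 8.54%. At 4 h 3 (6.38%) were higher and 6 (12.8%) lower, beside 11.0% and 9.11%. Pnrc2, a decapping co-activator that also acts in nonsense-mediated decay, was lower, with a log2 fold change of -1.09 (SE 0.19) at 0 h, -1.22 (SE 0.19) at 2 h and -1.59 (SE 0.19) at 4 h. Zfc3h1, of a nuclear RNA surveillance complex, was lower, with log2 fold changes of -1.20, -1.08 and -1.04 (SE 0.21 each). The third by p-value among those lower was Zcchc11, a terminal uridylyltransferase, at 0 h (-0.91), the poly(A) polymerase Papd5 at 2 h (-0.86) and Eif4enif1, an eIF4E-binding partner of DDX6, at 4 h (-1.05). Those higher were led by Ccrn4l (nocturnin, 2.03), Etf1 (a release factor, 0.50) and Skiv2l (the SKI helicase, 0.67) at 0 h. At 2 h they were Pnrc1 (1.52), Lsm14b (1.23) and Ccrn4l (1.28), and at 4 h Eif4e2 (0.55), Lsm14b (1.17) and Papd7 (0.92).

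The second comparison followed the transcripts after transcription was stopped. Counts are relative to the RNA in each library, so a higher value is a larger share of the RNA present at that time. New synthesis under actinomycin D was not measured. Edc3, Cnot4 and Cnot2 were the 3 falls of smallest p-value in each genotype, and Lsm4 rose in both. By role, in libraries labelled cKO 3 of 9 CCR4-NOT genes, 3 of 14 decapping genes, 4 of 7 nonsense-mediated decay genes and 4 of 10 exosome genes fell, and in those labelled WT 5, 3, 3 and 5 of them in the same order. In libraries labelled cKO, 14 members fell at 4 h relative to 0 h (18% of all genes) and 2 rose (12.1%); in those labelled WT, 16 fell (24.2%) and 3 rose (15.6%). The same 12 members fell in both genotypes (15.8% of genes): Cnot2, Cnot4, Cnot7, Dcp1a, Edc3, Upf2, Smg1, Smg6, Exosc1, Exosc3, Exosc7 and Dis3. Lsm4 alone rose in both (8.53% of genes). The median log2 fold change of the members was -0.25 in cKO and -0.44 in WT, beside 0.08 and 0.00 for all genes.

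Edc3, a scaffold that activates DCP2, fell most. It had 2.92, 1.28 and 2.22 CPM at 4 h against 7.95, 14.9 and 13.2 CPM at 0 h in libraries labelled cKO (log2 -2.48, SE 0.30, adjusted p = 1.11e-05). In those labelled WT it had 2.76, 1.72 and 2.39 CPM at 4 h against 18.5, 16.2 and 19.0 CPM at 0 h (log2 -2.95, SE 0.31, adjusted p = 1.31e-06). No 4 h library reached the lowest 0 h library. Dcp1a had 5.55, 3.58 and 1.56 CPM at 4 h against 7.20, 15.4 and 13.5 CPM at 0 h in cKO, and 4.77, 3.82 and 3.43 CPM at 4 h against 18.4, 17.9 and 19.0 CPM at 0 h in WT. Its log2 change was -1.75 (SE 0.43) in cKO and -2.20 (SE 0.44) in WT, and it was near its 4 h level at 2 h, at 2.66 ± 1.59 CPM in cKO and 4.24 ± 1.06 CPM in WT. The paralog Dcp1b lay at or below 1.44 CPM in each RNA-seq library and did not pass (log2 1.03 in cKO and 1.29 in WT). Dcp2 fell in WT, with 3.39, 4.20 and 5.17 CPM at 4 h against 9.24, 8.85 and 11.3 CPM at 0 h (log2 -1.20, SE 0.25, adjusted p = 0.00115). In cKO Dcp2 had 7.22 ± 0.41 CPM at 4 h and 8.62 ± 2.16 CPM at 0 h, and did not pass. Patl1 fell in cKO (-1.07, adjusted p = 0.00367) and did not pass in WT.

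Cnot2 had 46.6, 38.7 and 49.5 CPM at 4 h against 83.0, 111 and 91.5 CPM at 0 h in libraries labelled cKO (log2 -1.08, SE 0.19, adjusted p = 0.000302). In those labelled WT it had 34.3, 39.3 and 45.6 CPM at 4 h against 145, 137 and 144 CPM at 0 h (log2 -1.84, SE 0.19, adjusted p = 1.13e-06). Cnot4 fell, with a log2 change of -1.54 (SE 0.20) in cKO and -1.67 (SE 0.20) in WT, with no overlap of the libraries given above. Upf2 fell, with a log2 change of -1.08 (SE 0.24) in cKO and -1.37 (SE 0.24) in WT, and Smg1 by -1.29 (SE 0.23) in cKO and -0.98 (SE 0.23) in WT. Upf2 was near its 4 h level at 2 h in both genotypes. Cnot7 fell, with a log2 change of -0.59 in cKO and -0.43 in WT, while its paralog Cnot8 did not pass (0.38 in cKO and -0.14 in WT). Cnot6l, a catalytic subunit of the CCR4 type, fell in WT (-1.44, adjusted p = 0.00365) and did not pass in cKO (-0.89, adjusted p = 0.066). Its paralog Cnot6 did not pass in either (0.19 in cKO and 0.44 in WT). Cnot1 had a log2 fold change of -0.43 in cKO (adjusted p = 0.398), where the libraries overlapped, and fell, with a log2 change of -0.96 in WT (SE 0.36, adjusted p = 0.0419).

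In the exosome, the cap subunit Exosc3 had 1.95, 3.78 and 5.17 CPM at 4 h against 9.85, 11.9 and 7.73 CPM at 0 h in libraries labelled cKO (log2 -1.44, SE 0.33, adjusted p = 0.00361), and it fell, with a log2 change of -1.62 (SE 0.35) in those labelled WT. The ring subunit Exosc7 fell, with a log2 change of -0.998 in cKO and -1.06 in WT, and the cap subunit Exosc1 by -0.86 in cKO and -1.10 in WT. The catalytic subunit Dis3 fell, with a log2 change of -0.71 in cKO and -0.63 in WT. In cKO the 4 h and 0 h libraries of Exosc1, Exosc7 and Dis3 overlapped. Exosc4 fell in WT (-1.20, adjusted p = 0.0069), while Exosc10 rose in cKO (0.74, adjusted p = 0.0418). Of the decay factors that cut or recruit after UPF1, the endonuclease Smg6 fell, with a log2 change of -0.997 in cKO and -0.96 in WT, and Smg5 fell in cKO (-1.18, adjusted p = 0.027). Lsm4 rose by 0.65 (SE 0.21) in cKO and 0.93 (SE 0.21) in WT. It had 29.7, 35.5 and 26.5 CPM at 4 h against 23.8, 20.4 and 14.2 CPM at 0 h in cKO, and 33.4, 30.0 and 29.9 CPM at 4 h against 16.5, 17.9 and 14.6 CPM at 0 h in WT. The Lsm4 groups did not overlap in either genotype. Lsm7 had 314, 329 and 311 CPM at 4 h against 160, 168 and 166 CPM at 0 h in WT. Lsm7 (0.95, SE 0.21) and Lsm5 (0.65, SE 0.20) rose in WT. The direction of Lsm5 in WT and of Lsm4 and Exosc10 in cKO turned with ribosomal protein genes as the reference, to -0.09, -0.06 and -0.02, and Lsm7 and Lsm4 in WT did not pass there or on the TPM scale.

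**Figure D3:**
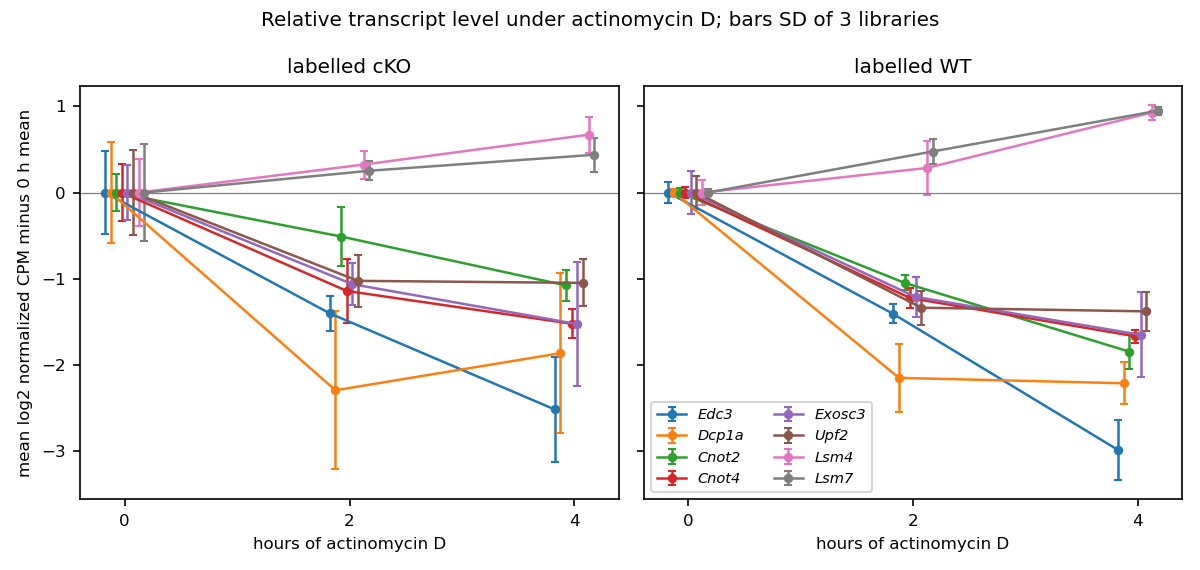
Mean log2 normalized CPM of 8 decay genes at 0, 2 and 4 h of actinomycin D minus their 0 h mean, in libraries labelled cKO (left) and WT (right); bars are the SD of 3 libraries. Edc3 falls furthest in both panels, and Lsm4 and Lsm7 end above 0.

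These calls depended on how libraries were scaled. With ribosomal protein genes as the reference, 30 members fell and 0 rose in cKO, and 31 fell and 0 rose in WT, while of all genes 5481 fell in cKO (2528 with TMM factors) and 6016 in WT (3402). On log2(TPM + 1), 19 fell and 0 rose in cKO, and 27 fell and 0 rose in WT, beside 3841 and 5179 of all genes falling. With library size alone, 16 fell and 0 rose in cKO, and 23 fell and 2 rose in WT, beside 3169 and 4412 of all genes falling. The median of all genes lay at -0.65 in cKO and -0.73 in WT with ribosomal protein genes, at -0.21 and -0.32 on the TPM scale and at -0.15 and -0.33 with library size alone. With replicate number as a block, 5 rose in cKO, where Exosc5 (1.07), Lsm5 (0.54) and Lsm6 (0.46) were added, and 16 fell, where Cnot6l (-1.05) and Xrn1 (-0.77) were added. In WT 7 rose with the block, where Cnot6 (0.43), Exosc5 (0.76), Lsm6 (0.63) and Upf3b (0.38) were added, and 20 fell, where Exosc8 (-0.45), Exosc9 (-0.45), Pan3 (-0.75) and Patl1 (-0.58) were added. Of all genes, the block gave 2966 rising and 3239 falling in cKO (1694 and 2528 without it) and 3332 rising and 4084 falling in WT (2194 and 3402 without it). With RLE factors, 13 fell in WT, where Cnot1 (adjusted p = 0.0549), Cnot7 (0.0788) and Dis3 (0.0606) did not pass. Without the filter on low counts, Cnot7 (0.215) and Dis3 (0.0945) in WT and Lsm4 (0.0637) and Smg5 (0.0608) in cKO did not pass.

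Single libraries decided the smaller of these changes. In cKO, the calls of Exosc7 (without 0 h library 1), Smg6 (without 0 h library 3 or 4 h library 2), Dis3, Exosc1 and Smg5 (without 0 h library 1 or 4 h library 2 or 3) did not pass. The same held for Exosc10 (without 0 h library 1 or 4 h library 1 or 2) and Lsm4 (without 0 h library 2 or 3 or 4 h library 1 or 2, adjusted p up to 0.127). In WT, Cnot1 (without any 1 0 h library or 4 h library 2 or 3, adjusted p up to 0.186), Cnot7 (without 0 h library 2 or 3 or any 1 4 h library) and Dis3 (without 0 h library 1 or 3 or any 1 4 h library) did not pass. Neither did Smg6 (without 0 h library 1 or any 1 4 h library), Exosc4 (without 4 h library 3) or Lsm5 (without 0 h library 1 or 2). Edc3, Cnot2, Cnot4, Upf2 and Smg1 passed in both genotypes with any 1 library left out. Some falls held without single libraries but did not pass without all libraries of 1 replicate number. In WT these were Exosc1 and Exosc7 (without number 1, 2 or 3), Cnot6l (without 1 or 2) and Exosc3 (without 1). In cKO they were Dcp1a and Exosc3 (without number 2) and Cnot7 (without 1 or 2).

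Of the other RNA decay genes, 19 of 47 (40.4%) fell and 3 (6.38%) rose in cKO, beside 18% and 12.1% of all genes. In WT 20 (42.6%) fell and 4 (8.51%) rose, beside 24.2% and 15.6% of all genes. In cKO the falls were led by Ccrn4l (-3.80), Zcchc11 (-1.65) and Toe1 (-1.90), and the rises by Eif4a3 (0.75), Angel1 (0.74) and Rbm8a (0.38). In WT the falls were led by the poly(A) polymerase Papd7 (-3.16), Zcchc11 (-1.92) and the deadenylase Toe1 (-2.57), and the rises by Skiv2l (0.89), Wdr61 (0.39) and the poly(A)-binding protein Pabpc1 (0.68).

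Whether transcripts were lost at a different rate in the genotypes was tested as the difference of a linear slope over 0, 2 and 4 h. By edgeR 0 members were called higher (0.00713% of all genes) and 0 lower (0% of all genes), and DESeq2 called 0 in each direction. Of all genes, DESeq2 called 45 higher and 19 lower. With a replicate block 0 members were called, beside 65 higher and 24 lower of all genes. In edgeR's fit with no block, 2 members, or 4.44%, had unadjusted p below 0.05. This is a smaller share than the 8.44% of all genes, so these are no result about the members. They were Cnot2 and Dcp2, both with a less negative slope in cKO. Cnot2 changed by -0.27 log2 per hour (SE 0.04) in cKO and -0.46 (SE 0.04) in WT, a difference of 0.19 (SE 0.06, adjusted p = 0.34). Dcp2 had a difference of 0.24 (SE 0.09, adjusted p = 0.46). The differences of the 45 members ran from -0.22 to 0.24 log2 per hour, with SEs of 0.061 to 0.348. Edc3 changed by -0.62 log2 per hour (SE 0.07) in cKO and -0.74 (SE 0.07) in WT, and Upf2 by -0.27 (SE 0.08) in cKO and -0.35 (SE 0.07) in WT. Cnot1 changed by -0.11 (SE 0.09) in cKO and -0.24 (SE 0.09) in WT, a difference of 0.13 (SE 0.12, adjusted p = 0.868).

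The third comparison asked which decay transcripts carry m6A, by setting the m6A pull-down against its input in WT cells. The helicase Ddx6, which acts in translational repression and decapping, was the 1 member higher in the pull-down (6.06% of all genes), and 12 members were lower (14.3%). The lower ones were Lsm2, Lsm3, Lsm4, Lsm5, Lsm6 and Lsm7 of the LSM ring, Exosc5, Exosc7, Exosc8 and Exosc9 of the exosome ring, the nuclear exonuclease Xrn2 and the poly(A)-specific ribonuclease Parn. Of these, 9 were shorter than the median gene, at 0.164 to 0.567 times its length, while Xrn2, Parn and Lsm6 were 1.18, 1.02 and 1.33 times as long. The median log2 fold change was -0.05 over the members and 0.01 over all genes.

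Lsm6 had 104, 101 and 107 CPM in the m6A pull-down, against 185, 170 and 178 CPM in the input (log2 -0.78, SE 0.07, adjusted p = 5.64e-05). Lsm7 had 21.2, 22.9 and 23.9 CPM in m6A, against 49.3, 42.9 and 42.8 CPM in input (-0.99, SE 0.10). Lsm5 had 27.6, 26.4 and 27.1 CPM in m6A, against 55.1, 47.9 and 48.3 CPM in input (-0.90, SE 0.09). Each of these ring subunits was separated from its input by a gap wider than either group's range. Lsm4 had 52.4, 49.0 and 56.7 CPM in m6A, against 84.3, 78.1 and 83.4 CPM in input (-0.64, SE 0.08). Lsm2 had 24.8, 25.6 and 23.6 CPM in m6A, against 42.2, 34.5 and 33.8 CPM in input (-0.57, SE 0.11). Exosc9, an exosome ring subunit, had 51.8, 53.2 and 56.7 CPM in m6A, against 84.6, 78.9 and 75.7 CPM in input (-0.56, SE 0.08). Lsm2, Lsm4 and Exosc9 did not overlap between groups either. Lsm3 (-0.56), Exosc5 (-0.86), Exosc7 (-0.51), Exosc8 (-0.43), Parn (-0.27) and Xrn2 (-0.25) were lower as well.

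Ddx6 had 258, 224 and 251 CPM in m6A, against 197, 172 and 204 CPM in input (log2 0.35, SE 0.09, adjusted p = 0.0213), and the groups did not overlap. Without m6A library 1 or 3 or input library 2 its adjusted p was 0.0718, 0.087 and 0.0563. Exosc8, Xrn2 and Parn also lost their calls without single libraries, Exosc8 and Xrn2 without any 1 m6A library or input library 1 or 3 (up to 0.133 and 0.104) and Parn without m6A library 1 or 3 or input library 1 or 3 (up to 0.109). Cnot1 had 301, 269 and 291 CPM in m6A, against 314, 246 and 285 CPM in input, a log2 fold change of 0.03 (SE 0.10, adjusted p = 0.869) with overlapping groups. The direction of the balance rested on the scaling: 14 members were higher and 8 lower with library size alone, and 28 higher and 3 lower on log2(TPM + 1), beside 3627 higher and 1293 lower, and 7236 higher and 770 lower, of all genes. The median of all genes was 0.22 with library size alone and 0.40 on the TPM scale. Lsm5, Lsm6 and Lsm7 stayed lower and passed under each scaling, at -0.42, -0.30 and -0.51 on the TPM scale, where Lsm2, Lsm3 and Lsm4 were at -0.09, -0.09 and -0.16 and did not pass, and where Xrn2, Parn and Exosc8 turned to 0.22, 0.21 and 0.05. Exosc5, Exosc7 and Exosc9 did not pass as lower on the TPM scale either. With library size alone, Exosc7, Exosc8, Parn and Xrn2 did not pass as lower. With replicate number as a block, 6 members were higher, where Dcp1a (0.25), Dcp2 (0.33), Smg5 (0.33), Upf2 (0.25) and Upf3b (0.17) were added, and 16 were lower, where Cnot6l (-0.31), Cnot8 (-0.19), Patl1 (-0.33) and Exosc1 (-0.23) were added. Of all genes, the block gave 2441 higher and 2932 lower, beside 858 and 2023 without it.

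**Figure D4:**
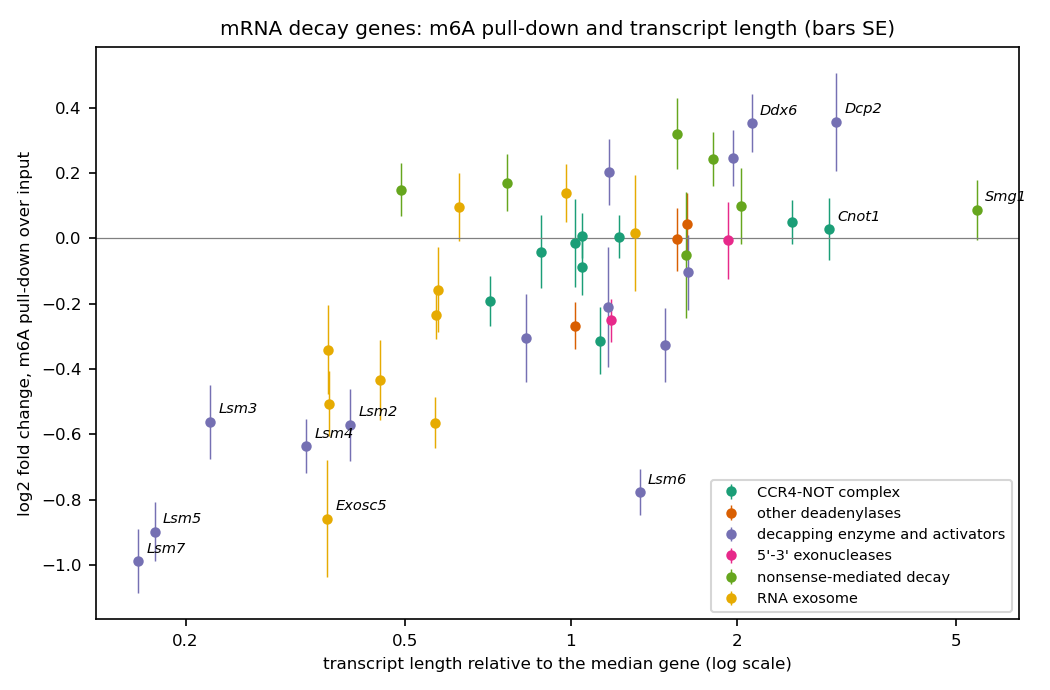
Log2 fold change of the m6A pull-down over input against transcript length relative to the median gene (log scale) for the 45 decay genes, coloured by role; bars are the SE. The shortest transcripts, among them Lsm7 and Lsm5 near -0.99 and -0.90, lie at the bottom, and Lsm6 lies low at 1.33 times the median length.

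Relative length, from the ratio of deposited counts to TPM, went with the pull-down values. Spearman's rho across the 45 members was 0.67 for m6A over input, 0.68 for YTHDF2 over input and 0.25 for YTHDF2 over IgG, beside 0.39, 0.29 and 0.14 over all genes. Genes are not independent replicates and share libraries, so no p is given. The other RNA decay genes had 3 of 47 higher in m6A, Zcchc6 (0.42), Toe1 (0.43) and Pde12 (0.46), and 9 lower, led by C1d (-0.90), Magohb (-1.33) and Pabpc1 (-0.50). These are 6.38% higher and 19.1% lower, beside 6.06% and 14.3% of all genes.

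The last comparisons asked which decay transcripts were recovered with the YTHDF2 protein in WT cells. Against the input, 14 members or 31.1% were higher in the YTHDF2 pull-down (30.7% of all genes) and 8 or 17.8% lower (17.5%). These shares are near those of all genes and are no result about the decay genes. Against IgG, 2 members were higher, Ddx6 and Dcp1a (14.3%), and 1 lower, Edc4 (0.330%). Both comparisons use the same YTHDF2 libraries, so their values are given side by side. The median of the members was 0.05 against input, beside 0.23 for all genes, and -0.17 against IgG, beside -0.08 for all genes. Titles and descriptions of the samples name the YTHDF2 and Input libraries the other way round. The descriptions, whose names are the count columns' names, were used, and with the titles each of the 22 calls against input takes the opposite sign.

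Ddx6 had 300, 375 and 346 CPM in the YTHDF2 pull-down, against 63.4, 76.1 and 68.6 CPM in IgG and 128, 157 and 130 CPM in the input. It was higher than IgG by a log2 of 2.29 (SE 0.17, adjusted p = 4.52e-06) and higher than input by 1.30 (SE 0.16, adjusted p = 8.13e-05). Dcp1a had 123, 163 and 178 CPM in YTHDF2, against 84.4, 91.0 and 93.7 CPM in IgG and 58.3, 42.9 and 51.5 CPM in input. It was higher than IgG by 0.79 (SE 0.18, adjusted p = 0.00893) and higher than input by 1.60 (SE 0.18). Neither gene's YTHDF2 libraries overlapped those of IgG or input, and both calls against IgG held with any 1 library left out, with adjusted p-values up to 0.000108 for Ddx6 and 0.0442 for Dcp1a. Its paralog Dcp1b, at 8.74 ± 0.77 CPM in YTHDF2, 5.50 ± 0.79 CPM in IgG and 4.34 ± 1.38 CPM in input, was higher than input (0.99, adjusted p = 0.00894) and did not pass against IgG (0.66, adjusted p = 0.133). Edc4, a decapping scaffold, had 37.3, 47.5 and 50.4 CPM in YTHDF2, against 54.5, 74.0 and 73.2 CPM in IgG and 24.7, 25.8 and 24.3 CPM in input. It was lower than IgG (-0.58, SE 0.17, adjusted p = 0.0442) and higher than input (0.85, SE 0.18), and its call against IgG did not pass without any 1 YTHDF2 library or IgG library 2 or 3 (adjusted p up to 0.162), without the filter on low counts (0.0607) or on the TPM scale (0.22). Dcp2 was higher than input by 0.73 (SE 0.16) and did not pass against IgG (0.32, SE 0.16, adjusted p = 0.235).

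Among deadenylases, Pan3, the adapter that brings the nuclease PAN2 to mRNA, had 95.1, 81.6 and 120 CPM in YTHDF2, against 103, 74.1 and 102 CPM in IgG and 26.4, 27.0 and 29.3 CPM in input. Its log2 fold change was 1.85 (SE 0.19, adjusted p = 3.28e-05) over input, and its YTHDF2 and IgG libraries overlapped. Cnot1 had 276, 300 and 327 CPM in YTHDF2, against 351, 303 and 340 CPM in IgG and 185, 137 and 170 CPM in input. It was higher than input by 0.88 (SE 0.16, adjusted p = 0.00102), with -0.14 (SE 0.16, adjusted p = 0.613) over IgG. Pan2 (1.18), Cnot10 (1.15) and Cnot7 (0.56) were higher than input as well, while Cnot8, the paralog of Cnot7, did not pass (-0.25). Against IgG, Pan2 (-0.04), Cnot10 (-0.33), Cnot7 (-0.40) and Cnot8 (-0.09) did not pass. Cnot7 lost its call over input without YTHDF2 library 2 or 3 or any 1 input library, and also with RLE factors or DESeq2.

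Upf2 had 53.4, 68.1 and 73.9 CPM in YTHDF2, against 47.8, 58.4 and 59.1 CPM in IgG and 23.8, 24.4 and 24.1 CPM in input (1.43, SE 0.17, over input). Smg1 had 116, 96.6 and 156 CPM in YTHDF2, against 126, 87.3 and 135 CPM in IgG and 47.4, 37.6 and 40.1 CPM in input (1.56, SE 0.22, over input). For both the YTHDF2 libraries lay above each input library and overlapped the IgG libraries, with 2 of 3 for Upf2 and 1 of 3 for Smg1 above the highest IgG library. Over IgG the log2 fold change was 0.24 for Upf2 (SE 0.16, adjusted p = 0.382) and 0.09 for Smg1 (SE 0.21, adjusted p = 0.819). Upf3b was higher than input (0.66, adjusted p = 0.0114), but not without YTHDF2 library 3, and did not pass against IgG (-0.43, adjusted p = 0.163). Its paralog Upf3a was lower than input. Upf3a had 19.2, 21.2 and 23.8 CPM in YTHDF2, against 20.5, 24.6 and 22.2 CPM in IgG and 47.2, 41.3 and 49.3 CPM in input (-1.10, SE 0.16, over input). The cytoplasmic exonuclease Xrn1 was higher than input (0.84, SE 0.18) and did not pass against IgG (-0.17, SE 0.18, adjusted p = 0.576). Lower than input were Lsm2 (-1.24), Lsm4 (-0.81), Lsm1 (-0.60) and Lsm3 (-0.50) of the LSM ring and Exosc9 (-0.71), Exosc5 (-0.71) and Exosc2 (-0.54) of the exosome. Of these, Lsm1 did not pass without input library 1 or 3 or YTHDF2 library 3, Lsm3 without input library 1 or 3 or YTHDF2 library 2 or 3, Exosc5 without input library 1 or YTHDF2 library 3, and Exosc2 without input library 1 or YTHDF2 library 2. On the TPM scale Lsm1, Lsm3, Exosc9, Exosc5 and Exosc2 did not pass as lower, nor did Lsm3 and Exosc2 with library size alone. Against IgG, Lsm2 (0.01), Lsm4 (-0.18), Lsm1 (0.55) and Lsm3 (-0.17) did not pass. Neither did Exosc9 (-0.26), Exosc5 (-0.22) or Exosc2 (-0.01).

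**Figure D5:**
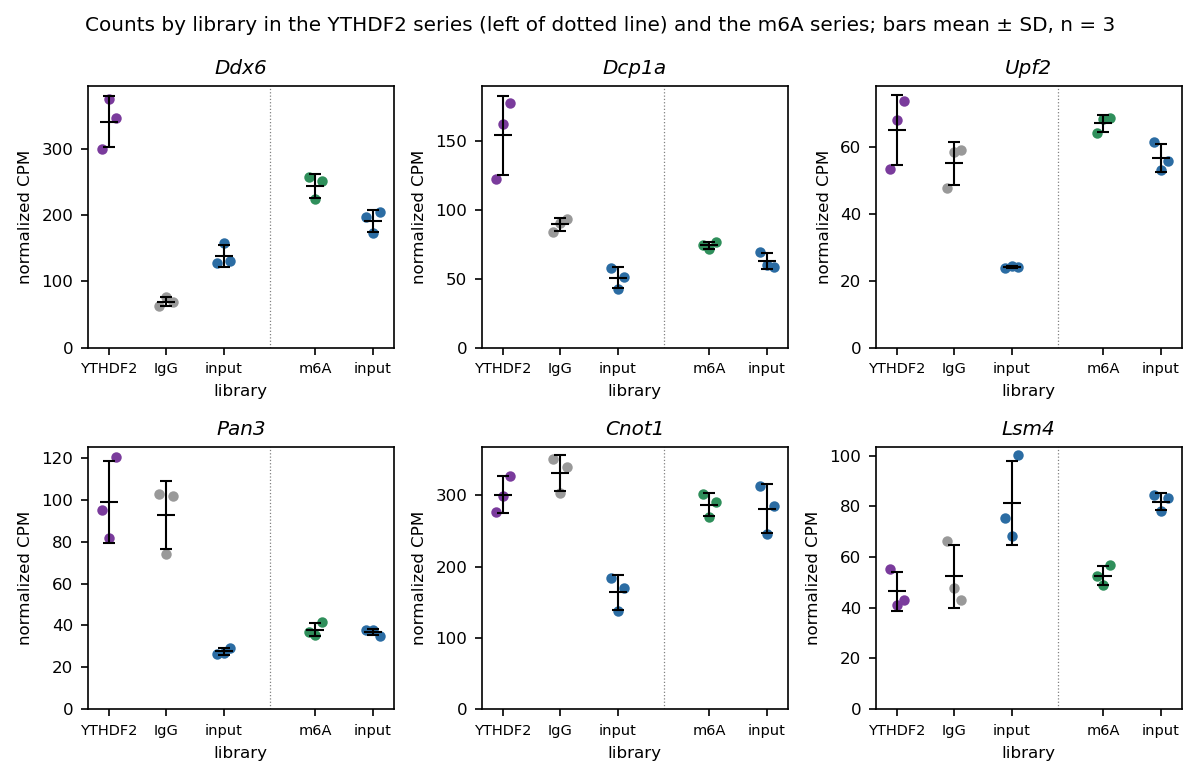
Normalized CPM of 6 decay genes in each library of the YTHDF2 series (YTHDF2, IgG, input) and, right of the dotted line, the m6A series (m6A, input); points are libraries and bars are the mean ± SD of 3. Ddx6 lies at 300 to 375 CPM in the YTHDF2 pull-down and 63.4 to 76.1 CPM in IgG, while Upf2, Pan3 and Cnot1 overlap between YTHDF2 and IgG.

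Scaling moved the split over input to 21 higher and 3 lower on log2(TPM + 1) and to 13 higher and 12 lower with DESeq2. Of all genes, 5980 were higher and 1233 lower than input on the TPM scale, and 3740 and 3402 with DESeq2. Against IgG the split of the members was 2 higher and 2 lower with RLE factors and 2 higher and 6 lower with DESeq2. Of all genes, 1752 were higher and 326 lower than IgG with RLE factors, and 2017 and 801 with DESeq2. With replicate number as a block, 4 members were higher than IgG, where Dcp1b (0.68) and Lsm1 (0.56) were added, and 9 were lower, where Cnot7 (-0.39), Cnot10 (-0.36), Parn (-0.32), Upf3b (-0.43), Smg5 (-0.60), Exosc8 (-0.35), Exosc10 (-0.36) and Lsm5 (-0.38) joined Edc4. Of all genes, the block gave 3134 higher and 1268 lower than IgG, beside 2040 and 47 without it. The median of all genes against IgG was -0.20 with RLE factors. Of the other RNA decay genes, 20 of 47 were higher than input, led by Zfc3h1 (2.28), Eif4enif1 (1.57) and Papd7 (1.59), and 12 lower, led by Pabpc1 (-1.30), C1d (-0.80) and Rqcd1 (-0.73). These are 42.6% higher and 25.5% lower, beside 30.7% and 17.5% of all genes. Against IgG, 3 (6.38%) were higher, Nudt16 (1.57), Toe1 (1.15) and Papd7 (1.22), beside 14.3% of all genes. Nudt16 is a decapping enzyme and Toe1 a deadenylase.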

How the data were processed

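The authors deposited gene counts and TPM for 33 mouse libraries: 18 SMART-seq2-based RNA-seq libraries (2 genotypes by 3 times) and 15 SMART-seq3-based pull-down and input libraries. Per the submitters' processing notes, bcl2fastq 2.17.1.14, Trimmomatic 0.32 and STAR 2.5.2a were used with GRCm38; for the counter, annotation and strand setting the sources used here give nothing. Deposited counts were tested with edgeR 4.0.16 (TMM, filterByExpr, quasi-likelihood, R 4.3.3), with Benjamini-Hochberg adjustment over 14029, 14167 and 14255 genes in the RNA-seq, m6A and YTHDF2 series and a threshold of 0.05. CPM values are TMM-normalized. Residual degrees of freedom were 12 (14 for the slope), 4 and 6. Alternatives were RLE factors, library size alone, 81 ribosomal protein genes as the reference, no filter, DESeq2 1.42.0, limma 3.58.1 on log2(TPM + 1), a replicate block, omission of libraries, and groups from the titles. A fold change on the log2(TPM + 1) scale understates the change of low genes.

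Groups came from the titles and, in the YTHDF2 series, the descriptions. Same-numbered libraries deviated together between times (lowest r 0.351 in cKO and 0.211 in WT), in the m6A series (0.133) and in the YTHDF2 series (0.438 with input, 0.619 with IgG), so the numbers pair them there by this check of the data. They did not between genotypes (-0.145, -0.0696 and -0.0249). The main tests carried no term for the pairing, and the replicate block did. The fits were tested on simulated data. The members and the lists were chosen with earlier results of these data known. Every called member was named in each comparison, with values by library for the 6 of smallest p and for Cnot1, paralogs beside called members, and the 3 of smallest p in each direction among the other decay genes; Upf3b at 0 h, Dcp2 at 4 h, Lsm4, Lsm7, Dcp1a and Ddx6 were given by library beyond that rule. Promoters came from RefSeq (GRCm38.p6).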

Additional observations from a re-analysis of the deposited data

How the results depend on the processing

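With any 1 library or all libraries of 1 replicate number left out, the members called lower in cKO numbered 1 to 15 at 0 h, 2 to 15 at 2 h and 2 to 11 at 4 h, and those higher 0 to 2, 0 to 2 and 0 to 5. At 4 h against 0 h, 7 to 16 fell and 0 to 4 rose in cKO, and 7 to 14 fell and 2 to 4 rose in WT. In the m6A series 9 to 13 were lower and 0 to 3 higher. Over input 12 to 14 were higher and 4 to 9 lower in YTHDF2, and over IgG 2 were higher and 0 to 1 lower. The slope gave 0 in each case.

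Counts moved by over 1.5 times as follows, and the cause was not tested. With library size alone, 2 members were higher in cKO at 2 h and 6 at 4 h, 0 rose in cKO, and 14 were higher in m6A. With ribosomal protein genes, 0 were higher in cKO at 2 h and 1 at 4 h, 10 were lower at 2 h and 10 at 4 h, and 30 fell in cKO and 31 in WT with 0 rising in either. Without the filter, 0 were higher at 2 h, 1 rose in cKO and 0 were lower than IgG. With DESeq2, 4 rose in cKO, 2 were higher in m6A and 6 were lower than IgG. On the TPM scale, 1 was higher in cKO at 4 h, 27 fell in WT, and 0 rose in either genotype. In m6A 28 were higher and 3 lower on that scale, and in YTHDF2 3 were lower than input and 0 lower than IgG. RLE factors gave 2 lower than IgG. In each of these cases the count over all genes moved in the same direction.

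With a replicate block, 5 rose in cKO and 7 in WT, 6 were higher in m6A, and 4 were higher and 9 lower than IgG. Over input the block gave 18 higher and 11 lower, beside 5549 and 3526 of all genes (4373 and 2490 without it). Between genotypes, where same-numbered libraries share only a number, the block gave 8 lower at 2 h and 8 at 4 h. Of all genes it gave 1685 lower at 2 h and 1721 at 4 h, beside 1198 and 1278 without it.

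Directions that turned were these. With ribosomal protein genes, in cKO over time Ddx6 was -0.64, Exosc10 -0.025, Lsm1 -0.70, Lsm2 -0.61, Lsm4 -0.062 and Upf3b -0.56, and in WT Ddx6 was -0.61, Lsm3 -0.53 and Lsm5 -0.085. On the TPM scale in m6A, Cnot10 was 0.38, Cnot3 0.41, Cnot6 0.42, Cnot8 0.28, Edc4 0.36, Exosc1 0.24, Exosc8 0.049, Pan2 0.46, Parn 0.21, Xrn1 0.46 and Xrn2 0.22. With groups from the titles, YTHDF2 over input gave 8 higher and 14 lower, with Cnot1 -0.88, Cnot10 -1.15, Cnot7 -0.56, Dcp1a -1.60, Dcp1b -0.99, Dcp2 -0.73, Ddx6 -1.30, Edc4 -0.85, Pan2 -1.18, Pan3 -1.85, Smg1 -1.56, Upf2 -1.43, Upf3b -0.66, Xrn1 -0.84, Exosc2 0.54, Exosc5 0.71, Exosc9 0.71, Lsm1 0.60, Lsm2 1.24, Lsm3 0.50, Lsm4 0.81 and Upf3a 1.10. Over IgG the titles gave 6 higher and 15 lower, with Dcp1a -0.82, Pan3 -1.75, Smg1 -1.47, Upf2 -1.19, Exosc2 0.53, Lsm4 0.63 and Upf3a 1.03. Of all genes, the titles gave 2490 higher and 4373 lower over input, and 2422 higher and 2873 lower over IgG. With 3 libraries a group, low genes such as Dcp1b had wide errors, and a missed threshold does not show equal levels.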
